A study of Mus musculus with 81 samples.

Results

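Genes of the mesothelium and epicardium were followed through heart RNA of the BXD family of mice. They were 10 of the 22180 genes that could be named on the arrays, listed by name (Msln, Upk1b, Upk3b, Lrrn4, Muc16, Krt8, Krt18, Krt19, Wt1 and Calb2). Each was read from the probe set that carries its symbol alone and has the highest mean over 81 arrays. All 10 were measured, and none was removed for a low value. BXD strains are recombinant inbred mice bred from the strains C57BL/6J and DBA/2J. Hearts came from male animals aged 29 weeks that had been fasted overnight and perfused, and each array carried the pooled RNA of about 5 of them, all of the same strain and diet. There were 39 high fat pools and 42 chow pools. Both diets were available for 39 strains, made up of 37 BXD strains, DBA/2J and C57BL/6J, and 3 further BXD strains had a chow pool alone. What the high fat diet contained is not stated in the sources used here, and the protocol text that all samples share speaks of chow alone.

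The epicardium is the mesothelial sheet that covers the heart, continuous with the lining of the pericardial cavity. Mesothelial cells are flat cells of mesodermal origin with epithelial features: they hold simple keratins, cover their free face with glycoproteins and mucins, and secrete a lubricating fluid. In the embryonic heart the epicardium also gives rise to fibroblasts and mural cells of the coronary vessels, under transcription factors such as Wt1. Myl7, the atrial regulatory light chain of myosin, stands here for how much atrial muscle a heart pool held.

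The windows upstream of 4 members are shown because they bear on genes compared below: Upk3b and Lrrn4, which followed Myl7, and Krt8 and Krt18, neighbours on chromosome 15 whose proteins pair into 1 filament. Entries were found for 5 of the 10 members in a RefSeq promoter table (GRCm38.p6), and each sequence is the 250 bases before the gene's start, read 5′ to 3′ on the gene's strand. Capitals mark a TEAD core (GGAATG, or its reverse complement) in Upk3b and Lrrn4 and a GATA core (AGATAA) in Krt8.
Upk3b (chr5:136038246-136038495, plus strand): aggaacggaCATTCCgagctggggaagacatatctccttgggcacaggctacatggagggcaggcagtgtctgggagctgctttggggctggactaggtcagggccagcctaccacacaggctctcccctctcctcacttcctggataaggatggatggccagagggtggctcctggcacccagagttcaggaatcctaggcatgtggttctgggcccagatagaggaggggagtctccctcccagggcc
Lrrn4 (chr2:132880863-132881112, minus strand): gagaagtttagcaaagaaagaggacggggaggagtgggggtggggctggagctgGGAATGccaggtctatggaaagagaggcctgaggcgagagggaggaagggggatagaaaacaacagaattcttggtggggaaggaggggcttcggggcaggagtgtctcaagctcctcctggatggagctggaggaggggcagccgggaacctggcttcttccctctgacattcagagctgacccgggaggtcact
Krt8 (chr15:102004343-102004592, minus strand): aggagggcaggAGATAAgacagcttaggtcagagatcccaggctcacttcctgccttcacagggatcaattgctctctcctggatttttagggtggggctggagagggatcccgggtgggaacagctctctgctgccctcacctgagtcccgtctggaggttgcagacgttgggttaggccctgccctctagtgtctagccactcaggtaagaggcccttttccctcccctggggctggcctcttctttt
Krt18 (chr15:102027966-102028215, plus strand): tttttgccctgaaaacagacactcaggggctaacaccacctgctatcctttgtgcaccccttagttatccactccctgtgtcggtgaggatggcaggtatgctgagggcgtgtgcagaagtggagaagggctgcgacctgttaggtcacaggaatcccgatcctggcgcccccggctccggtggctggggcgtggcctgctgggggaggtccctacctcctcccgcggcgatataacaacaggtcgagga
Both strands were searched for these letters and for TATAAA (the TATA box). A GC box (GGGCGG) and a CCAAT box (CCAAT) were searched as well, and no matches overlapped. GGAATG lay 241 to 236 bases before the start of Upk3b, in reverse, and 196 to 191 bases before that of Lrrn4, and 12.6% of all 32851 windows hold it. AGATAA lay 239 to 234 bases before the start of Krt8 and is in 9.99% of all windows. The windows of Krt18 and Muc16, genes that also had a called slope on Myl7, hold neither. Any link between these letters and the slopes was not tested. The TATA box letters are in 12.4% of all windows, those of the GC box in 32.7% and those of the CCAAT box in 33.8%, and none of the 5 members' windows holds them. The windows of Upk3b, Lrrn4, Krt8 and Krt18 had a GC content of 60.8%, 59.2%, 58.0% and 60.4%, that of Muc16 46.4%, and the median window 52.4%.

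Values are the deposited scores, which average 8 on every array with an SD of 2. Their log base is unknown, so differences are given in units and not as folds. Correlations between pairs of arrays over all genes ran between 0.969 and 0.992. The 92 probe sets for ERCC control sequences, which match no mouse gene, averaged 5.96, with a 95th percentile of 6.7. Over all 81 pools 9 of the 10 members averaged above 6.7. The exception was Calb2 at 5.89, under the mean of those controls and at percentile 9.2 of all genes. Its values may therefore be no more than background. Muc16 averaged 7.03, and some of its pools lay under 6.7, down to 6.37 on high fat (BXD65) and 5.87 on chow (BXD63). The lowest pools of Lrrn4, at 6.54 on each diet, lay under 6.7 as well. Whether ERCC RNA was added to the samples is not stated in the sources used here, so the level of these controls is not a proven background. Myl7 differed widely between pools. In 4 high fat pools (BXD65, BXD44, BXD71 and BXD68) it lay between 7.06 and 7.77, apart from the other 35, which began at 11.58. It was under 10 in 6 chow pools as well (BXD65, BXD73, BXD61, BXD80, DBA/2J and BXD81). In whole hearts, fewer cells of a type and less RNA per cell cannot be told apart.

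The members with products at the cell surface followed Myl7. With strain and diet in the model, 6 of the 10 members had a slope on Myl7 above 0 at an adjusted p under 0.05 (Upk3b, Upk1b, Lrrn4, Muc16, Msln and Krt18) and the other 4 did not pass. With the atrial gene Nppa as the predictor in place of Myl7 the count was 3, without Lrrn4, Muc16 and Krt18. With the atrial gene Sln, or with the mean of the atrial genes other than Myl7, it was 6. For the slope on Myl7, 1.11% of 22179 genes passed above 0 and 0.239% below 0. The median slope was 0.0875 units per unit of Myl7 over the members and -0.0026 over all genes. Among the 92 ERCC probe sets the 95th percentile of the size of the slope was 0.0312.

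Upk3b encodes a uroplakin, a membrane protein of the plaques of bladder epithelium that mesothelium also makes. It lay between 9.28 and 11.26 in high fat pools with a median of 10.36, and between 9.07 and 11 in chow pools with a median of 10.05. Its slope on Myl7 was 0.187 ± 0.0285 units per unit (SE, n = 39 strains with both pools, adjusted p = 3.56e-05), which ranked 27 of 22179 genes. The strain BXD63 had the largest Upk3b difference of the 39 strains (2.12, against a median of 0.166) and is not a typical pair. There Upk3b was 11.19 on high fat and 9.07 on chow, where Myl7 was 15.11 on high fat and 10.82 on chow. Upk1b, the tetraspanin uroplakin, ranged between 7.64 and 9.96 on high fat (median 8.80) and between 7.64 and 9.84 on chow (median 8.62). Its slope was 0.181 ± 0.026 (adjusted p = 1.63e-05), rank 32. The lowest high fat pool for Upk1b was BXD71, one of the 4 with little Myl7, and the highest was BXD73.

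Lrrn4, a transmembrane protein with leucine-rich repeats, lay between 6.54 and 8.54 on high fat (median 7.51) and between 6.54 and 8.37 on chow (median 7.55). Its slope was 0.140 ± 0.0296 (adjusted p = 0.00502), and its slope on Nppa did not pass (adjusted p = 0.121). Both extremes of its high fat range fell in pools already named, the lowest in BXD68 and the highest in BXD73. Msln encodes mesothelin, a surface glycoprotein anchored by lipid, and Muc16 the large membrane mucin that mesothelin binds. Msln lay between 8.47 and 9.83 on high fat (median 9.03) and between 8.29 and 9.51 on chow (median 8.87), with a slope of 0.098 ± 0.0168 (adjusted p = 0.000275). Muc16 lay between 6.37 and 8.07 on high fat (median 7.18) and between 5.87 and 7.60 on chow (median 6.92), with a slope of 0.10 ± 0.0251 (adjusted p = 0.0251). The Muc16 call was lost on leaving out BXD63, BXD71 or BXD81, at adjusted p-values of up to 0.0816. For each of these 5 genes the ranges of the diets overlapped.

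Of the keratins only Krt18 passed, and differences between their slopes were not tested. Krt18, the acidic keratin that pairs with Krt8 in simple epithelium, had a slope of 0.077 ± 0.0192 (adjusted p = 0.0243), a call lost without BXD63 or DBA/2J at adjusted p-values of up to 0.0536. Krt8 had a slope of 0.043 ± 0.0152 (adjusted p = 0.197) and Krt19, a small acidic keratin of simple epithelia, 0.021 ± 0.0158 (adjusted p = 0.707), neither of which passed. The slope of Krt8 was at percentile 96.9 of all genes, and its 39 differences between the diets correlated with those of Myl7 at r = 0.416 (permutation p = 0.00806) and rho = 0.487 (permutation p = 0.00175), and at r = 0.363 without the 2 strains farthest from the median. For Krt18 they did so at r = 0.538 (permutation p = 0.00048) and rho = 0.640 (permutation p = 5e-05), and at r = 0.553 without those 2 strains. These correlations are no evidence beyond the slopes of Krt8 and Krt18, which rest on the same 39 differences. Their permutation p-values are not adjusted over all genes. Krt18 was read by 2 probe sets. The one not used averaged 6.70 against 8.26 for the one used, the pair correlated at r = 0.044, and with their mean in place of the brighter one the slope was 0.054 (adjusted p = 0.0562). Wt1, a zinc finger factor of the epicardium that some other cells also make, had a slope of -0.022 ± 0.0146 (adjusted p = 0.653). Calb2, the calcium-binding protein calretinin of mesothelium and neurons, had a slope of -0.007 ± 0.0155 (adjusted p = 0.926).

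**Figure D1:**
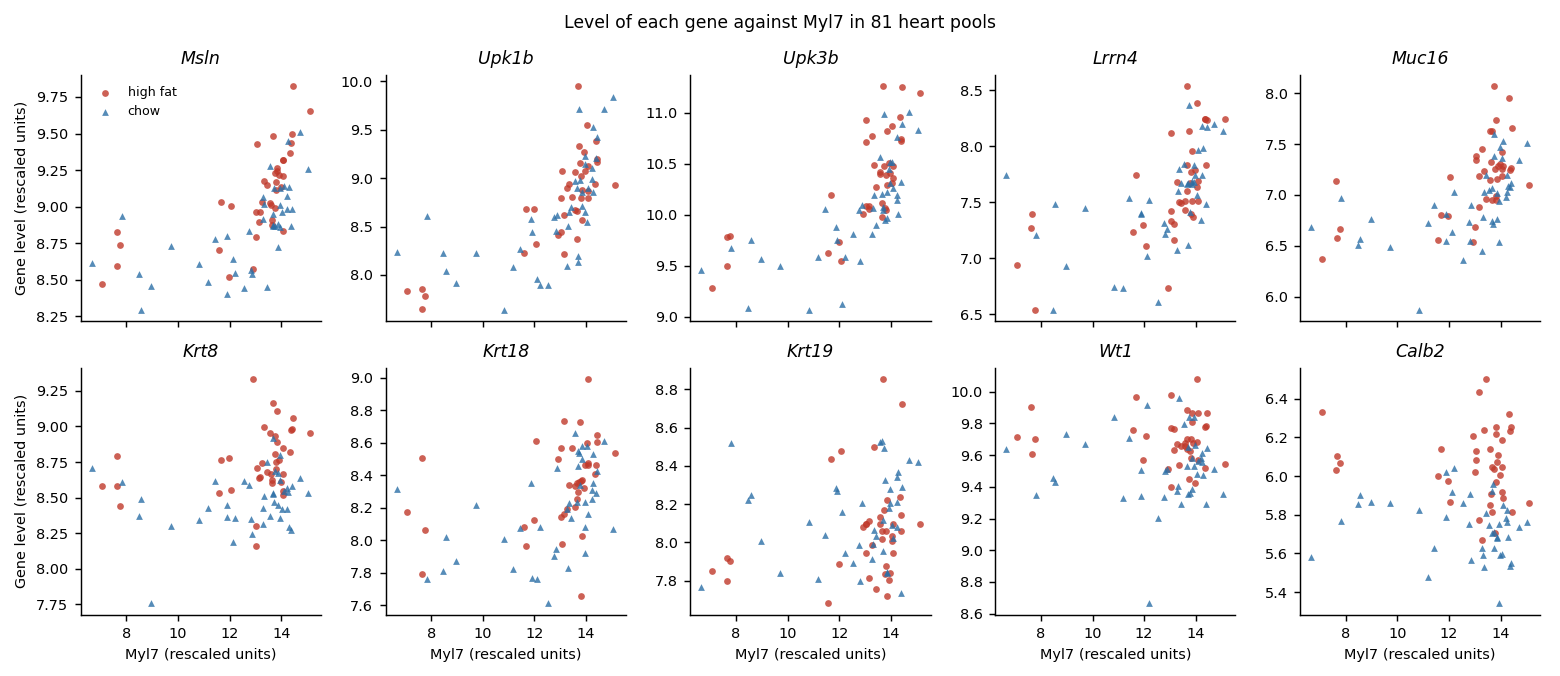
Level of each of the 10 genes (vertical axis, rescaled units) against the level of Myl7 (horizontal axis, rescaled units) in 39 high fat pools (red circles) and 42 chow pools (blue triangles). Msln, Upk1b, Upk3b, Lrrn4 and Muc16 are higher in pools with more Myl7, and the points of Wt1 and Calb2 show no slope that passed the test.

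The pools with little Myl7 were low in the surface genes. In the 4 high fat pools with Myl7 under 10, Upk1b was 7.84 in BXD65, 7.86 in BXD44, 7.64 in BXD71 and 7.78 in BXD68. All 4 lay below the high fat median of 8.80, as they did for Upk3b, Msln, Lrrn4, Muc16 and Krt19. Wt1 in the same pools was 9.71, 9.90, 9.61 and 9.71, with 1 of the 4 below the high fat median of 9.68. In the 6 chow pools with Myl7 under 10, Upk3b lay between 9.08 and 9.75, all 6 below the chow median of 10.05, as they did for Upk1b. For Msln, Lrrn4 and Muc16 5 of the 6 lay below it, BXD65 being the exception for Lrrn4 at 7.74 against a median of 7.55. For Krt19 3 of the 6 did. The slopes were also fitted without them. Over the 30 strains whose pools both had Myl7 of 10 or more, chosen after the data were seen, the slope was 0.364 for Upk3b, 0.330 for Upk1b, 0.308 for Lrrn4, 0.252 for Muc16, 0.197 for Msln and 0.150 for Krt18. The adjusted p-values of these 6 were between 7.48e-06 and 0.037.

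Relations with Myl7 were computed over high fat pools with Myl7 of 10 or more, all chow pools, and chow pools at 10 or more. With the differences between the diets within strains, these made 40 relations in all. Their permutation p-values were two-sided, and 1e-05 is the smallest that 100000 draws can give. Over the 35 high fat pools with Myl7 of 10 or more, 4 members correlated above 0 with Myl7 at an adjusted p under 0.05 over all genes (Msln, Upk3b, Lrrn4 and Upk1b), where 0.915% of genes did. Over the 42 chow pools 5 did (the same 4 genes and Muc16), where 0.861% of genes did. The high fat set leaves out its 4 pools under 10 and the chow set keeps its 6, so these counts come from unlike sets. The plan had named all pools of both diets. Over the 36 chow pools with Myl7 of 10 or more, r for these 5 genes lay between 0.650 for Muc16 and 0.773 for Upk1b. For Msln over the high fat pools, r was 0.686 (permutation p = 1e-05, adjusted p = 0.000883) and rho 0.713 (permutation p = 1e-05). For Upk3b over all 42 chow pools, r was 0.708 (permutation p = 1e-05, adjusted p = 2.48e-05) and rho 0.833 (permutation p = 1e-05). Without the 2 pools farthest from the median of Myl7, r was 0.712 for Msln on high fat and 0.736 for Upk3b on chow. With 2 pools per strain, the slope fitted with strain and diet rests on the 39 differences between the diets within strains. Their correlations with the differences of Myl7 describe that slope again and are no further evidence. There r was 0.736 for Upk1b (permutation p = 1e-05) and rho 0.834 (permutation p = 1e-05), and without the 2 strains farthest from the median, BXD44 and BXD73, r was 0.734. Wt1 in the same comparison had an r of -0.236 (permutation p = 0.147) and a rho of -0.118 (permutation p = 0.47), and an r of -0.285 without the 2 strains farthest from the median. In BXD73 Myl7 was 13.68 on high fat and 7.82 on chow, and Upk1b was 9.96 on high fat and 8.61 on chow. In BXD44 Myl7 was 7.63 on high fat and 13.69 on chow, and Upk1b was 7.86 on high fat and 8.13 on chow.

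Whether the slope on Myl7 differed between the diets was tested as an interaction with limma. It passed for 0 of the 10 members and 0% of all genes. At an unadjusted p under 0.05 it did for 1 member, Wt1 (slope on high fat minus slope on chow -0.051 ± 0.0232), and for 4.5% of genes.

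Other genes of the same cells were divided as well. Of 20 further mesothelial and epicardial genes 19 were measured, and 8 had a called slope above 0 while the other 11 did not pass, with a list median of 0.0417. Gpm6a, a membrane glycoprotein, had a slope of 0.197 ± 0.0293 (adjusted p = 2.69e-05). Efemp1, a matrix glycoprotein, had 0.109 ± 0.0184 (adjusted p = 0.000197), Igfbp6, which binds insulin-like growth factors, 0.088 ± 0.0172 (adjusted p = 0.00202), and Prg4, the joint and mesothelial lubricant lubricin, 0.091 ± 0.0205 (adjusted p = 0.00973). Sema3d, Pdpn, Tcf21 and Bnc1 were the others. Tbx18, an epicardial transcription factor, had 0.030 ± 0.0155 (adjusted p = 0.482), and Aldh1a2, which makes retinoic acid, 0.026 ± 0.0254 (adjusted p = 0.782).

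**Figure D2:**
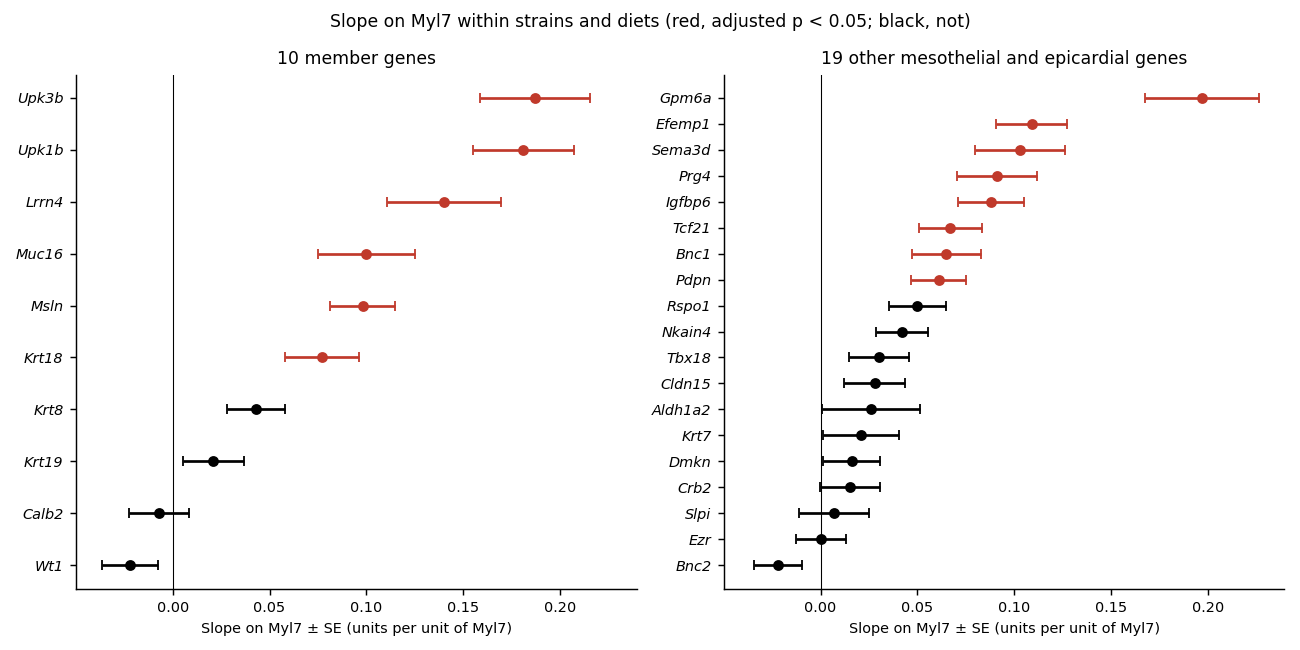
Slope on Myl7 (horizontal axis, units per unit of Myl7, ± SE) of the 10 members (left) and of 19 other mesothelial and epicardial genes (right) over 39 strains with both diets. Red marks an adjusted p under 0.05: 6 members, led by Upk3b at 0.187, and 8 of the others, led by Gpm6a at 0.197.

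Markers of other tissue that a dissected heart can carry were read beside these slopes. All 6 other atrial genes had slopes above 0, as with Myl4 at 0.274 ± 0.0231. Of pericardial adipocyte genes 2 of 7 passed above 0, Cidec at 0.179 ± 0.0407 and Plin1 at 0.142 ± 0.0332, both proteins of the lipid droplet. Of fibroblast genes 2 of 5 did, Dpt at 0.089 ± 0.0158 and Dcn at 0.035 ± 0.0079. The Dcn call was lost without BXD68 (adjusted p = 0.0574). No gene passed among 4 of non-mesothelial epithelium, 6 of lung, 4 of macrophages, 3 of T cells, 4 of neurons and 4 of ventricle. Of 4 endothelial genes Tie1 passed below 0, a call lost without BXD44 or BXD68 at adjusted p-values of up to 0.103. The mean level of the adipocyte list lay between 7.54 and 9.10 over the high fat pools and between 7.56 and 9.31 over the chow pools. Its part in the members' slopes was not tested.

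On high fat 7 of the 10 members were higher than on chow within the 39 strains at an adjusted p under 0.05, and the other 3 did not pass. That count stands against 23.8% of all genes called higher and 21.2% called lower. The median difference was 0.195 units over the members and 0.005 over all genes. Among the 92 ERCC probe sets 40.2% also passed, with a 95th percentile of 0.247 for the size of the difference and a largest of 0.43. Of the 7 called members 4 differed by more than 0.247 (Calb2, Upk3b, Krt8 and Muc16) and 3 by less (Msln, Wt1 and Krt18). The p-values for diet rest on how much the differences within strains varied from strain to strain.

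Calb2 was higher on high fat in more strains than any other member. It lay between 5.67 and 6.5 on high fat (median 6.05) and between 5.34 and 6.04 on chow (median 5.75). It was 0.312 ± 0.040 units higher on high fat (adjusted p = 1.97e-08) and higher in 38 of 39 strains, with BXD85 the exception. Its levels were in the range of the ERCC probe sets and may be background. The SD of the differences over strains was 0.25 units for Calb2 and 0.239 for Wt1. Krt8 lay between 8.16 and 9.33 on high fat (median 8.74) and between 7.76 and 8.92 on chow (median 8.48), a difference of 0.272 ± 0.042 (adjusted p = 1.15e-06) with 33 of 39 strains higher. Wt1 lay between 9.40 and 10.08 on high fat (median 9.68) and between 8.66 and 9.96 on chow (median 9.51). Its difference was 0.165 ± 0.038 (adjusted p = 0.000444), with 29 of 39 strains higher and the widest, 0.94, in BXD71, whose chow pool was the lowest for Wt1. All 3 had ranges that overlapped between the diets.

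Krt18 averaged 8.34 ± 0.271 on high fat and 8.19 ± 0.284 on chow (SD, n = 39 each), a difference of 0.150 ± 0.057 (SE, adjusted p = 0.0309) with 26 strains higher. That call was lost on leaving out BXD51, BXD66, BXD75 or DBA/2J, at adjusted p-values of up to 0.0547, and with the mean of its 2 probe sets (0.10, adjusted p = 0.0599). Krt19 was the only member with a lower mean on high fat. It averaged 8.06 ± 0.256 on high fat and 8.14 ± 0.221 on chow, and the difference of -0.083 ± 0.041 did not pass (adjusted p = 0.0961), with 12 of 39 strains higher.

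Among the surface genes Muc16, Upk3b and Msln passed and Upk1b and Lrrn4 did not. Muc16 averaged 7.17 ± 0.382 on high fat and 6.90 ± 0.369 on chow, 0.270 ± 0.075 higher (adjusted p = 0.00302), in 26 strains. Msln averaged 9.08 ± 0.308 on high fat and 8.85 ± 0.288 on chow, 0.225 ± 0.057 higher (adjusted p = 0.0013), in 26 strains. Upk3b averaged 10.33 ± 0.487 on high fat and 10.04 ± 0.500 on chow, 0.293 ± 0.103 higher (adjusted p = 0.0183), in 24 strains. The strain differences of Upk3b ran between -0.83 in BXD98 and 2.12 in BXD63, with a median of 0.166. Over the 30 strains whose pools both had Myl7 of 10 or more its difference was 0.213 and did not pass (adjusted p = 0.13). Upk1b differed by 0.132 ± 0.097 (adjusted p = 0.273) and Lrrn4 by 0.099 ± 0.093 (adjusted p = 0.4), each with 19 of 39 strains higher.

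**Figure D3:**
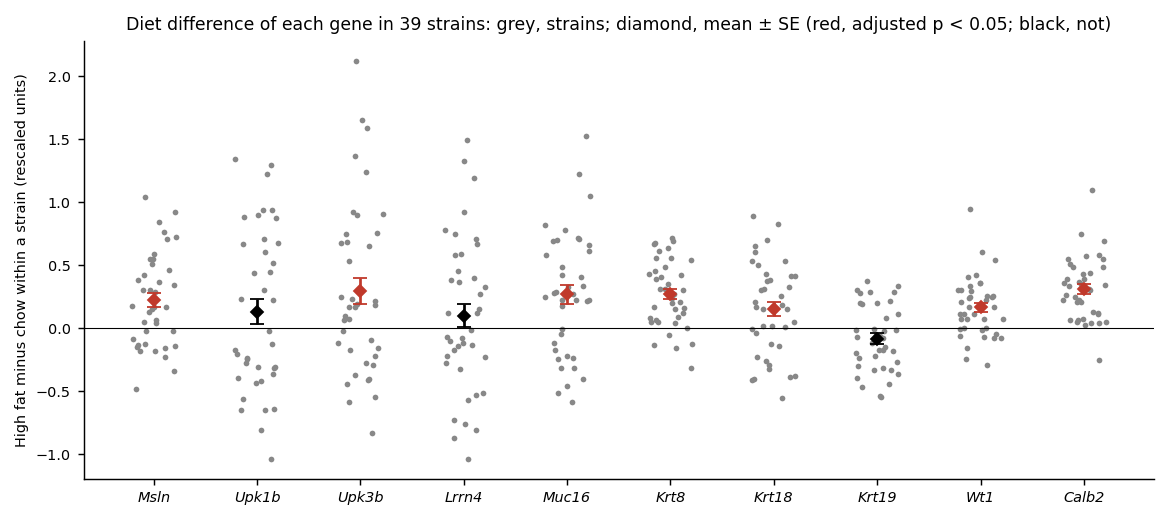
Difference between high fat and chow within a strain (vertical axis, rescaled units) for each gene, with 1 grey point per strain (39 strains) and the mean ± SE as a diamond, red where the adjusted p was under 0.05 and black where not. The points of Upk3b run between -0.83 and 2.12, and 38 of 39 points of Calb2 lie above 0.

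No diet difference of Myl7 was detectable at this spread. Myl7 averaged 12.91 ± 1.989 on high fat and 12.57 ± 2.094 on chow (SD, n = 39 each), a difference of 0.341 ± 0.391 (adjusted p = 0.5) with 17 strains higher. With Myl7 as a covariate the same 7 members passed for diet, with differences between 0.123 for Krt18 and 0.315 for Calb2. Of the 19 further mesothelial and epicardial genes 6 had higher and 2 lower levels on high fat, with a median of 0.041. Krt7, a basic keratin, was 0.357 ± 0.051 higher (adjusted p = 2.28e-07), Cldn15, a tight junction protein, 0.204 ± 0.041 higher (adjusted p = 8.68e-05), and Aldh1a2 0.269 ± 0.065 higher (adjusted p = 0.00083). Crb2, an apical polarity protein, had a difference of -0.400 ± 0.040 (adjusted p = 6.36e-11).

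Markers of other cell types were called for diet as well, where 23.8% of all genes were called higher and 21.2% lower. Of the ERCC probe sets 40.2% were called. Among the called markers, Scgb3a2 and Scgb1a1 of lung (mean levels 5.36 and 6.13), Krt4 (6.55) and Cd3g (6.67) averaged under the ERCC 95th percentile of 6.7. Epcam averaged 6.71. The values of these genes may be background. Of 6 lung genes 5 were higher on high fat, among them the surfactant gene Sftpa1 by 0.334 ± 0.037 (adjusted p = 9.86e-10), and the mean level of that list lay between 6.6 and 7.77 over the high fat pools and between 6.57 and 7.07 over the chow pools. Of 4 genes of non-mesothelial epithelium, Epcam was 0.574 ± 0.033 higher (adjusted p = 1.1e-17), Krt4 had a difference of -0.149 ± 0.051 (adjusted p = 0.0144), and Cdh1 and Krt14 did not pass. Their list mean lay between 7.05 and 7.61 over the high fat pools and between 6.89 and 7.42 over the chow pools. Of 7 adipocyte genes, Adipoq, the fat hormone adiponectin, had a difference of -0.852 ± 0.058 (adjusted p = 1.63e-15) with 0 of 39 strains higher, Cidea, a lipid droplet protein, was 0.276 ± 0.034 higher (adjusted p = 1.38e-08), and the other 5 did not pass. Of 5 fibroblast genes Pdgfra was 0.125 ± 0.030 higher, Lum 0.175 ± 0.043 and Col1a1 0.105 ± 0.036. Of 4 endothelial genes Pecam1 was 0.103 ± 0.020 higher and Kdr 0.128 ± 0.033. Of 4 macrophage genes Cd68 was 0.234 ± 0.036 higher, and of 4 neuronal genes Chat was 0.386 ± 0.034 higher. Of 3 T cell genes Cd3g was 0.126 ± 0.050 higher (a call lost without any 1 of 11 strains, at adjusted p-values of up to 0.0687) and Cd3e had a difference of -0.144 ± 0.050, and of 4 ventricular genes Myl3 had one of -0.148 ± 0.028. The part of these cell types in the members' diet differences was not tested.

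Strains differed in 1 member at an adjusted p under 0.05, Krt19, where 14.8% of genes passed the F test of strain. Its size is given as the intraclass correlation, the share of variance that the 2 pools of a strain have in common. It was 0.409 for Krt19 (adjusted p = 0.0224), and the median was 0.18 over the members and 0.155 over all genes. Krt19 was 8.85 on high fat and 8.52 on chow in BXD73, 8.72 on high fat and 8.53 on chow in BXD45, and 8.43 on high fat and 8.32 on chow in BXD96. At the other end it was 7.85 on high fat and 7.77 on chow in BXD65, 7.68 on high fat and 7.99 on chow in BXD103, and 7.84 on each diet in BXD101. Its high fat and chow levels correlated over 39 strains with r = 0.413 (permutation p = 0.008) and rho = 0.304 (permutation p = 0.0593). Without the 2 strains whose chow levels lay farthest from the chow median, r was 0.413. The call was lost without BXD45 or without BXD73, at adjusted p-values of up to 0.0773. Upk1b had an intraclass correlation of 0.261 (adjusted p = 0.0942), and 0.348 with Myl7 as a covariate, which passed (adjusted p = 0.0377). Upk3b and Lrrn4 had 0.045 (adjusted p = 0.415) and 0.052 (adjusted p = 0.406), although the spread of their levels over pools was in the top few percent of genes.

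**Figure D4:**
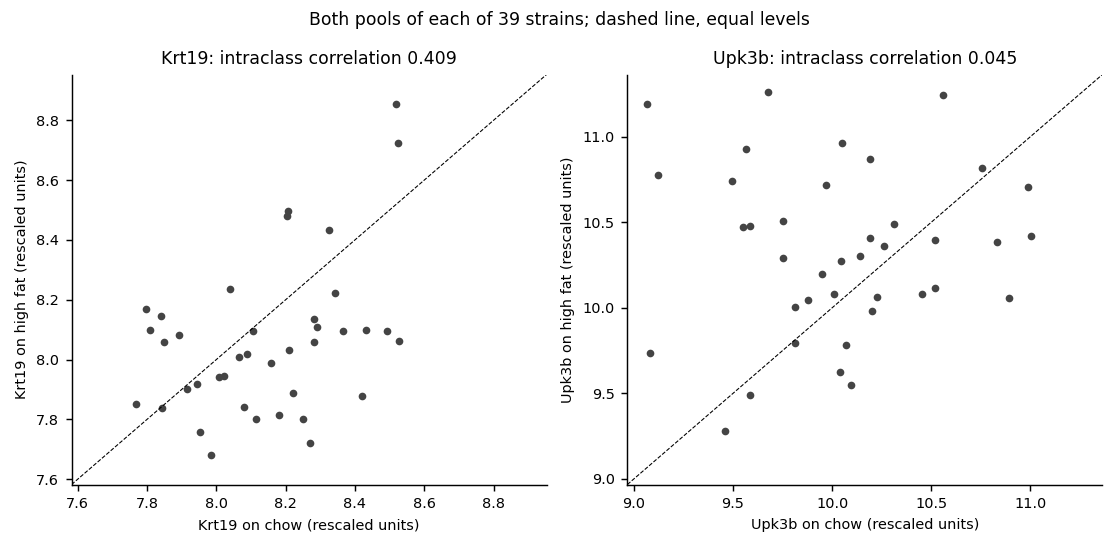
Level on high fat (vertical axis) against level on chow (horizontal axis), in rescaled units, for Krt19 (left) and Upk3b (right), 1 point for each of 39 strains, with a dashed line where the levels are equal. Krt19 pools of a strain resembled each other (intraclass correlation 0.409), and those of Upk3b did so less (0.045), a difference that was not tested.

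The spread itself differed between the members. With diet means removed, the SD over 81 pools was 0.518 units for Upk1b, 0.482 for Upk3b, 0.436 for Lrrn4 and 0.368 for Muc16, at percentiles 98.7, 98.4, 97.8 and 95.8 of all genes. It was 0.196 for Wt1 and 0.171 for Calb2, beside a median of 0.195 over all genes.

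Between the parent strains 1 member differed at an adjusted p under 0.05, Krt8, where 2.36% of genes did. It was 8.30 on high fat and 7.76 on chow in DBA/2J, and 8.89 on high fat and 8.54 on chow in C57BL/6J, a difference of DBA/2J minus C57BL/6J of -0.687 ± 0.186 (adjusted p = 0.0331). Both DBA/2J pools lay below both C57BL/6J pools. The DBA/2J chow pool was one of those low in Myl7: Myl7 was 13.04 on high fat and 8.97 on chow in DBA/2J, and 13.84 on high fat and 14.25 on chow in C57BL/6J. With Myl7 as a covariate the Krt8 difference was -0.557 and did not pass (adjusted p = 0.104). Each parent gave 1 pool per diet, so the spread was taken from all strains.

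The members did not vary as 1 block. Over the 81 pools with diet means removed, the 45 pairs of members had a median Pearson r of 0.307, between -0.268 and 0.818. All 10 pairs among Msln, Upk1b, Upk3b, Lrrn4 and Muc16 lay between 0.58 and 0.818, with Upk1b and Upk3b the closest. This group was not named in the plan, and each of its genes had a called slope on Myl7 in the same arrays. After a fit on Myl7 within each diet those 10 pairs still had r between 0.363 and 0.678, with a median of 0.552 against 0.724 before. Krt8 and Krt18, whose proteins form 1 filament, correlated at r = 0.121, Krt8 with Krt19 at 0.286 and Krt18 with Krt19 at 0.104. Krt19 had r between 0.406 and 0.461 with the 5 surface genes, and 0.351 to 0.441 after the fit on Myl7. Pairs with Wt1 had a median r of 0.123, and all 9 pairs with Calb2 were below 0, between -0.268 and -0.097. The pools of a pair of genes share arrays, strains and scaling, so these values describe the arrays and carry no test.

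**Figure D5:**
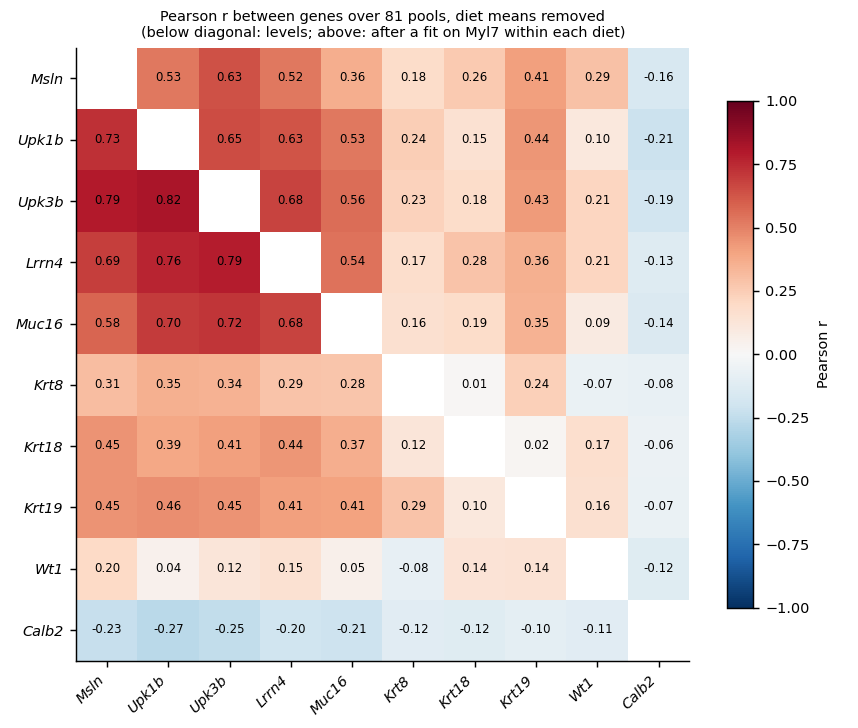
Pearson r between pairs of the 10 genes over 81 pools with diet means removed (colour scale from -1 to 1, values printed in the cells), below the diagonal for the levels and above it after a fit on Myl7 within each diet. The block at the upper left holds Msln, Upk1b, Upk3b, Lrrn4 and Muc16, with r of 0.58 or more below the diagonal, and the row of Calb2 is below 0 throughout.

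The genes outside the list most like the mean of the 10 standardised members were ranked by Pearson r over the same 81 pools. Gpm6a came first at 0.845, followed by Pkhd1l1 at 0.799, Chrdl1 at 0.738, Tmem163 at 0.735, Sema3d at 0.732, Stard10 at 0.730, Car3 at 0.729 and Aebp1 at 0.719. Chrdl1 encodes a secreted antagonist of bone morphogenetic proteins, Sema3d a secreted guidance factor, Car3 a carbonic anhydrase of muscle and fat, and Stard10 a lipid transfer protein. Gpm6a had an r of 0.836 over the 39 high fat pools and 0.854 over the 42 chow pools. All 8 had a slope on Myl7 above 0 with an adjusted p under 0.05, between 0.103 and 0.425 units per unit. Among all genes 1.11% did. Myl7 itself had an r of 0.638 with the members' mean, by which the 8 were picked from the same arrays. Their slopes are therefore not independent of how they were chosen.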

How the data were processed

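Whole-heart RNA was hybridised to 81 Affymetrix arrays, 1 pool per strain and diet. Values were used as deposited: 41345 probe sets, each with a score that looks logarithmic but has no stated base. Per the submitters' processing notes they come from Affymetrix Expression Console, with no further step stated in the sources used here. Every array averages 8 with an SD of 2 (medians 7.62 to 7.75), so changes common to most transcripts are removed. The plan assumed log2 values, and limma was kept without folds.

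Gene names come from the platform annotation, where 23521 probe sets have 1 symbol, 1814 several (not used), and 16010 are not in it. Diet, strain, the slope on Myl7, its interaction with diet and the parent contrast were fitted in R 4.3.3 with limma 3.58.1 over all genes on the 78 arrays of 39 strains, with strain and diet in the model and p-values adjusted by Benjamini-Hochberg. Pairing comes from the strain labels: deviations from the diet means correlated within strains at a median r of 0.248, against -0.0093 between strains, with 37 of 39 strains over 0.1. The fits were tested on simulated data. The genes named are the members, Myl7, up to 4 genes per list by smallest adjusted p (Tbx18, Pdpn, Tcf21 and Bnc1 were added after their values were seen) and the 8 most like the members' mean. The members, lists and rules were chosen with earlier results of these data known. Alternatives covered scaling, probe sets, dim genes, strains, covariates and other atrial genes. The number of arrays limits the precision.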

Additional observations from a re-analysis of the deposited data

How the results depend on the processing

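Of 338 comparisons of a member's result with an alternative other than leaving out a single strain, 325 kept direction and side of the threshold, 10 lost the call, 2 gained it and 1 reversed. Leaving out each strain in turn gave 1170 further values for diet, strain and slope, and 11 lost the call (Krt18 for diet in 4 and for the slope in 2, Muc16 for the slope in 3 and Krt19 for strain in 2). The reversal was the difference of Upk3b between DBA/2J and C57BL/6J, 0.028 with Myl7 as a covariate, uncalled in either fit (adjusted p = 0.99). The count of members with a called slope was 3 with Nppa in place of Myl7, since Krt18, Lrrn4 and Muc16 were lost (adjusted p = 0.0941, 0.121 and 0.0595). The count called for strain was 0 among the 6 members above the median level, which leaves Krt19 out, ran between 0 and 1 on leaving out each strain (0 without BXD45 or BXD73), and was 2 with Myl7 or the atrial genes as covariates. The count for the parents was 0 with Myl7 as a covariate; the cause of these changes was not tested. Without the replicate block (strain as a term) 7 members were called for diet and 6 for the slope, as with it, while the count of all genes with a called slope was 920 against 300. It was 564 over the 30 strains with Myl7 of 10 or more in both pools and 506 with the mean of the other atrial genes. For diet, Krt18 lost its call also without BXD44 and BXD73 (0.142, adjusted p = 0.0502) and over those 30 strains (0.137, adjusted p = 0.103), and for the slope without the parents (0.072, adjusted p = 0.0535). The settings on the 30 strains, and for diet that without BXD44 and BXD73, were added after seeing the data. Calb2 is limited by its signal, which does not exceed that of the control probe sets.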
